A study of Mus musculus with 9 samples.

Results

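The genes of the cytosolic ribosomal proteins were examined in mouse calvarial cells before and during osteoblast differentiation. Members were the protein-coding genes whose symbol begins with Rpl or Rps followed by a digit or p, without the ribosomal S6 kinases and without names of pseudogenes. The rule found 85 genes of 40548 in the tables: 30 of the small (40S) subunit, 43 of the large (60S) subunit, 3 of the ribosomal stalk, 8 paralogs of other members and 1 gene whose product is not a ribosomal protein, Rps19bp1. Reads were present in all 9 libraries for 82 members. The rule used symbols and no measured value.

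The study isolated cells from the calvaria of C57BL/6 pups of postnatal days 2 to 3, per the labels, and differentiated them after confluence with ascorbic acid and β-glycerol phosphate, the standard additives for matrix production and mineralization. RNA was collected at day 0, before differentiation, and after 4 and 7 days, with 3 biological replicates per stage. Ribosomal RNA was depleted before sequencing, so the transcripts of ribosomal proteins were measured but not the rRNA they assemble with. The labels of all 3 groups name the strain C57BL/6 and no transgene or further treatment, and they do not say which pups went into which culture. Per the labels, mineralized cells were released with collagenase I and then trypsin and other cells with trypsin alone, so the way of harvest and the stage cannot be told apart.

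A ribosome holds 1 copy of nearly every ribosomal protein, so cells make these proteins in matched amounts although each gene lies at its own place in the genome. The 40S subunit binds the mRNA and decodes it, the 60S subunit joins amino acids, and the stalk on the 60S subunit calls in the elongation factors. Most mRNAs of ribosomal proteins begin with a C followed by a run of pyrimidines, the terminal oligopyrimidine tract, through which mTOR signalling and Larp1 set their translation. Osteoblasts secrete large amounts of collagen matrix, and protein synthesis is a main demand on these cells.

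The start regions of 7 members are shown because they are the members with the 6 largest rises at day 7 and the one with the lowest fold change, and because the tract is the sequence feature that the family is known for. Each sequence runs from 40 bases before the annotated start of transcription to the base at position 29, from RefSeq on GRCm38.p6, 5′ to 3′ on the strand of the gene. Capitals mark the longest run of at least 7 bases of C or T that begins with C, searched on the strand of the gene from 20 bases before the start to position 29.
Rpl22l1: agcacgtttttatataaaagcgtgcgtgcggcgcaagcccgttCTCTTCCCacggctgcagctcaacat
Rps25: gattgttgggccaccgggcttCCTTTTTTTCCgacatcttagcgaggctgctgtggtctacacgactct
Rpl39l: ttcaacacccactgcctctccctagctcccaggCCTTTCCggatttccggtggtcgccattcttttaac
Rps16: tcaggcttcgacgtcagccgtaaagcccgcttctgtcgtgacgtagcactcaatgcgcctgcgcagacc
Rps21: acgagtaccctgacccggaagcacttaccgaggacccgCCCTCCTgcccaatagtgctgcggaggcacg
Rpl38: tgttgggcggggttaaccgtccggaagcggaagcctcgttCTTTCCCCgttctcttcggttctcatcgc
Rpl28: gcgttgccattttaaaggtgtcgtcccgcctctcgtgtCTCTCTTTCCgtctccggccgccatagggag
The regions lie at chr3:28805468-28805536, plus strand (Rpl22l1), chr9:44407674-44407742, plus strand (Rps25), chr16:10170188-10170256, plus strand (Rpl39l), chr7:28350649-28350717, plus strand (Rps16), chr2:180257339-180257407, plus strand (Rps21), chr11:114668540-114668608, plus strand (Rpl38) and chr7:4792925-4792993, plus strand (Rpl28). The run began within 4 bases of the annotated start in Rps21, Rpl38, Rpl22l1 and Rpl28. It began at 7 bases before the annotated start in Rpl39l and at 19 bases before it in Rps25. In Rps25 the bases just before the mark, ctt, are pyrimidines too, and the edge of the searched window set where the mark begins. The window of Rps16 held no such run.

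Of the 85 members, 65 had a start region in the RefSeq table, and 35 of them (53.8%) held such a run, against 21.6% of the 18569 genes with a region. The letters CCGGAAG, on either strand within 250 bases before to 50 after the start, were found in 24 of the 65 members (36.9%) and in 11.6% of all genes. AAGATGG was found in 9 members (13.8%) and in 6.42% of all genes, and TATAAA in 6 members (9.23%) and in 12.6% of all genes. Among the members with a region, the run was found in 11 of the 17 that rose at day 7 and in 23 of the 45 that were tested and did not pass. For each gene the RefSeq start nearest to the 5′ end of its GENCODE gene was used. The distance between them was 2 bases in Rpl39l and Rps21, 575 in Rps25 and 3550, the largest, in Rps24. A match describes the letters only, and annotated starts can differ from the starts used in these cells.

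The authors deposited CPM, the reads on a gene per 1000000 reads on genes, and RPKM, which also divides by the length of the gene model. Reads on genes numbered 7741204 to 14013219 at day 0, 32820610 to 37306090 at day 4 and 10675858 to 15622755 at day 7. Day 0 and day 7 share a table and were tested against each other with limma on log2(CPM + 0.5), over the 12712 genes with a mean of at least 1 CPM. Day 4 has a table of its own and more reads, so it was compared by direction and by overlap of the libraries, without a test. The labels fitted the osteoblast markers, of which 7 of 8 rose at day 7, with Ibsp (bone sialoprotein) at 3.38, 3.52 and 4.56 RPKM at day 0 and 3217, 2867 and 2338 at day 7. All 10 macrophage markers rose as well, from a summed 69.1–117 CPM at day 0 to 146–190 CPM at day 7. Of 4 osteoclast markers tested 3 rose and 1 fell, and the list summed to 153–201 CPM at day 0 and 349–364 CPM at day 7. Endothelial and erythroid markers summed to 2.34 CPM or less in each library, and for each of those lists 2 of 6 genes were listed at 0. Day 0 replicate 3 stood apart from the other libraries: 7 abundant genes that varied at least 3-fold within a stage, among them mt-Rnr2, Lars2 and Gm42418, took 20.6% of its CPM, against 2.09–13.0% in the other 8 libraries.

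Transcripts of the members together took a larger part of the total at day 7 than at day 0. The summed members were 1.99%, 1.97% and 1.48% of all CPM in the day 0 libraries, 1.69%, 1.99% and 1.82% at day 4 and 2.17%, 2.15% and 2.27% at day 7. Each day 7 library lay above each day 0 and day 4 library. The mean was 1.81% ± 0.288 at day 0 and 2.20% ± 0.0643 at day 7 (SD, n = 3), a ratio of 1.21, and the two-sided exact permutation test gave p = 0.1, the smallest value that 3 libraries against 3 allow. With the 7 varying genes left out of the totals, the members took 2.11%, 2.07% and 1.87% at day 0 and 2.22%, 2.48% and 2.48% at day 7, again without overlap, and the ratio of the means was 1.19. In bulk RNA a change in the cells present and a change in RNA per cell cannot be told apart.

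**Figure D1:**
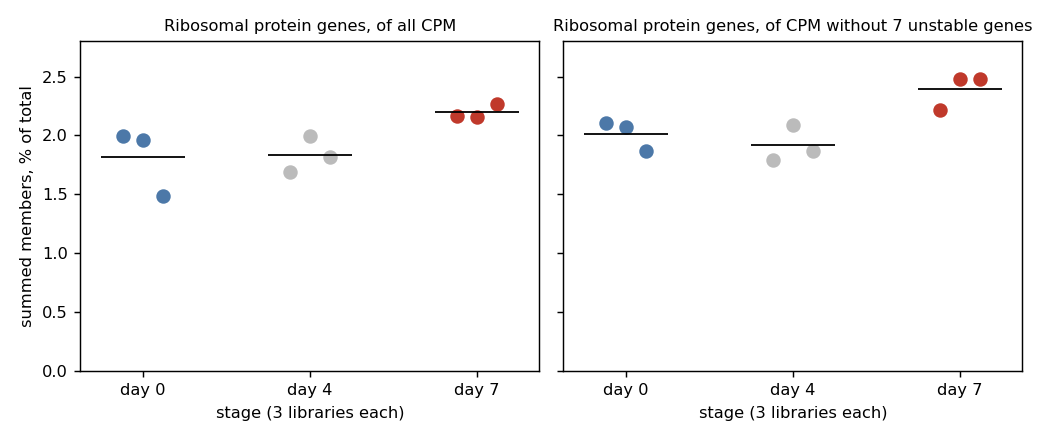
Summed CPM of the 85 members as a percentage of all CPM (left) and of CPM without the 7 abundant genes that varied within a stage (right), for each library (points) and as the mean of each stage (lines). The day 7 libraries sit at 2.15–2.27% on the left, above every day 0 library, and day 0 replicate 3 moves from 1.48% to 1.87% between the panels.

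The rise at day 7 was spread over the family but passed the test in a minority of genes. Of the 81 members tested, 20 were higher at day 7 than at day 0 and 0 were lower at an adjusted p of 0.05. Over all genes tested 12.6% were higher and 18.6% were lower. The median log2 fold change of the members was 0.29, against -0.11 over all genes. Of the 81 members 67 were above 0, against 4920 of the 12712 genes. At an unadjusted p under 0.05, 32 members were higher and 0 lower, against 1929 and 3175 of the 12712 genes. edgeR, DESeq2 and voomWithQualityWeights also called 0 members lower, against 20.8%, 18.3% and 23.4% of all genes. The libraries of the stages did not overlap for 35 of the 81 tested members, all with day 7 above day 0, against 16.9% of genes above and 25.4% below in the background. All 20 members that passed were among these 35. The 4 members that were not tested, Rpl23a, Rpl3l, Rpl10l and Rps27rt, had a mean below 1 CPM.

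The number of members past the threshold and the members' distance from the other genes depended on how the libraries were scaled and on which of them were used. With median-of-ratios scaling 49 members were higher and 0 lower, against 22.4% and 20.5% of all genes. That scaling raised the median of all genes from -0.11 to -0.01 and moved the split of calls over all genes from 1602 higher and 2369 lower to 2843 higher and 2612 lower. The members' median minus the median of all genes was 0.40 with the deposited CPM, 0.41 with median-of-ratios scaling and 0.35 without day 0 replicate 3. Without day 0 replicate 3, 23 members were higher and 3 lower (Rpl10a, Rpl27a and Rpl5), against 12.6% and 36.9% of all genes, and the members' median fell to 0.12. Without the 7 varying genes, 32 were higher and 1 lower (Rpl10a), against 15.0% and 32.3%. Without day 7 replicate 1 the number higher was 12 and the number lower 0, against 9.24% and 13.6% of all genes, and without day 7 replicate 3 they were 10 and 0, against 10.2% and 13.1%. The members' gene models are mostly short, and with the trend of each library on gene length removed 32 were higher and 0 lower, against 22.2% and 19.0%. There the members' median was 0.21, and the gap to all genes was 0.21 as well, down from 0.40. Of the 20 members, 10 passed in all 23 fits: Rpl22l1, Rpl35a, Rpl38, Rpl39l, Rpl41, Rps14, Rps16, Rps21, Rps24 and Rps25.

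**Figure D2:**
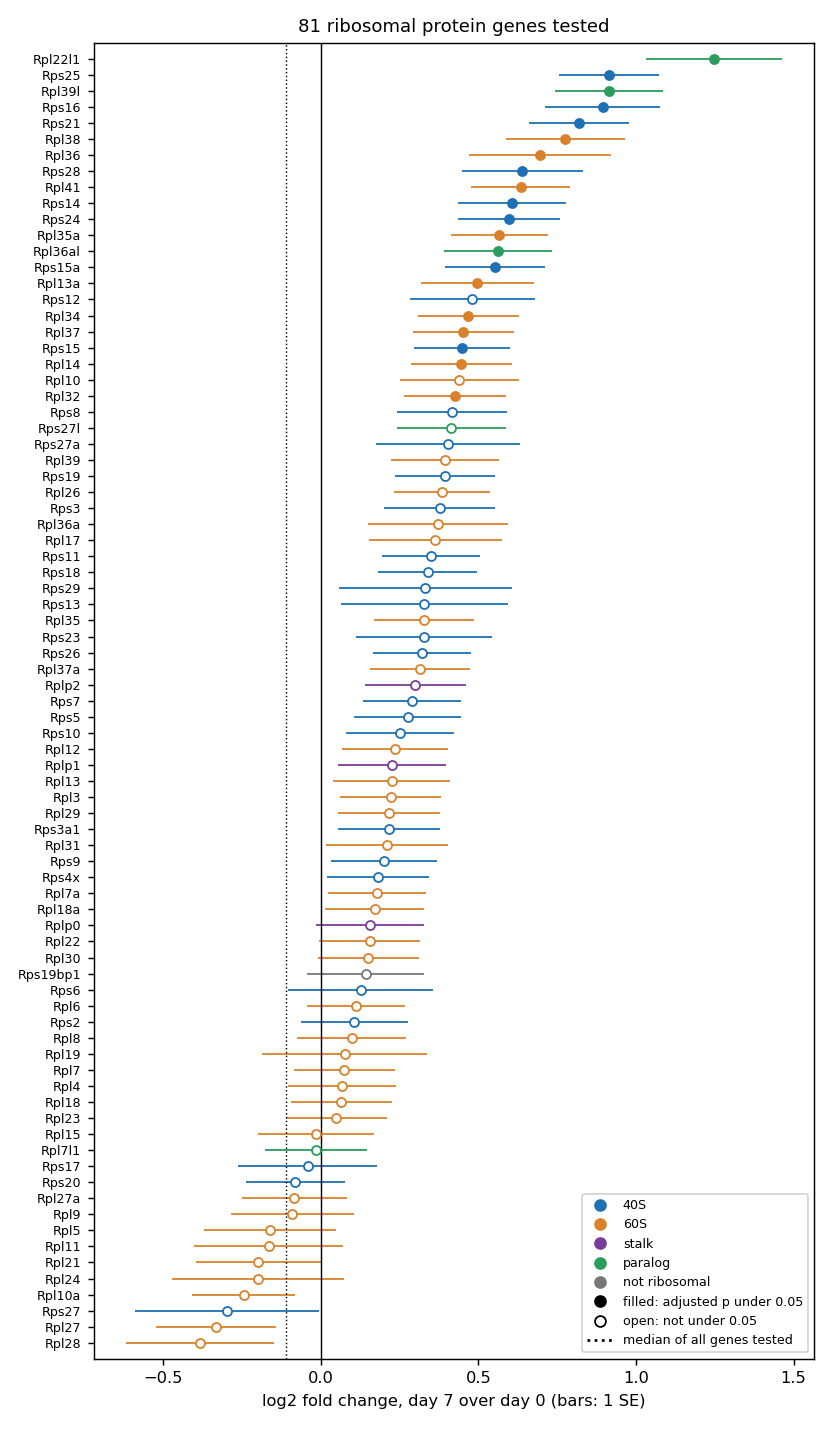
Log2 fold change of day 7 over day 0 for the 81 members tested, with 1 SE, coloured by role. Filled points passed an adjusted p of 0.05, and all 20 of them lie to the right of 0, while the 60S genes Rpl28, Rpl27 and Rpl10a and the 40S gene Rps27 lie farthest to the left and did not pass.

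Among the 40S genes, 8 of 30 rose at day 7 and 0 fell, against 12.6% and 18.6% of all genes. Their median log2 fold change was 0.34. The largest rise was that of Rps25, a protein of the subunit's head that some viral internal ribosome entry sites need. Rps25 stood at 141, 141 and 97.7 RPKM in the day 0 libraries, 181, 220.4 and 191 at day 4 and 229.6, 238 and 239.9 at day 7. Each stage lay above the one before it without overlap (log2 fold change 0.91 ± 0.16 (SE), adjusted p = 8.11e-06 for day 7 against day 0). Rps16, whose tail reaches toward the tRNA in the peptidyl site, stood at 29.9, 61.6 and 36.3 RPKM in the day 0 libraries, 44.8, 49.5 and 47.8 at day 4 and 81.5, 67.4 and 79.98 at day 7. The day 4 libraries of Rps16 lay inside the range of day 0, and all day 7 libraries were higher (log2 fold change 0.89 ± 0.18 (SE), adjusted p = 1.16e-04). Rps21 stood at 269.6, 245 and 189 RPKM in the day 0 libraries, 284, 335 and 293 at day 4 and 379, 405 and 448 at day 7, and its stages also followed each other without overlap (log2 fold change 0.82 ± 0.16 (SE), adjusted p = 4.93e-05).

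Of 3 genes of the 40S subunit known from inherited or acquired anaemias, Rps14 and Rps24 rose. Rps14, the gene linked to the anaemia of the 5q deletion, stood at 625, 590.5 and 414 RPKM in the day 0 libraries, 586, 732 and 657 at day 4 and 742, 843 and 865 at day 7. Its day 7 libraries were the 3 highest (log2 fold change 0.61 ± 0.17 (SE), adjusted p = 0.00469). Rps24, mutated in Diamond-Blackfan anaemia, stood at 315, 330.2 and 217 RPKM at day 0 and 397, 448 and 440.2 at day 7 without overlap (log2 fold change 0.60 ± 0.16 (SE), adjusted p = 0.00331). Rps19, the gene most often mutated in that disease, stood at 46.7, 40.1 and 31.5 RPKM at day 0 and 49.2, 49.1 and 55.4 at day 7. These did not overlap either, but Rps19 did not pass (log2 fold change 0.39 ± 0.16 (SE), adjusted p = 0.0525), and it passed in 12 of the 23 fits. Rps28, Rps15a and Rps15 completed the 8, with log2 fold changes of 0.64, 0.55 and 0.45. Without day 7 replicate 3, Rps28 (0.54), Rps15a (0.50) and Rps15 (0.45) no longer passed, and Rps15 also failed without day 0 replicate 1 (0.45), day 7 replicate 1 (0.44) or day 7 replicate 2 (0.45). With the length correction Rps15 stood at 0.26 and did not pass, and without day 0 replicate 3 Rps28 stood at 0.34, still past the threshold.

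Other 40S genes with roles of their own did not pass. Rps3, which lines the entry of the mRNA channel, stood at 311, 302 and 209.7 RPKM at day 0 and 332, 363 and 357 at day 7 (log2 fold change 0.38 ± 0.18 (SE), adjusted p = 0.0986). Its groups did not overlap. Rps6, the substrate of S6 kinase downstream of mTOR, stood at 4.68, 4.59 and 2.12 RPKM at day 0 and 4.34, 3.54 and 3.99 at day 7, with overlapping groups (log2 fold change 0.13 ± 0.23 (SE), adjusted p = 0.725). Rps27a, made as a fusion with ubiquitin, was listed low, at 2.60, 2.71 and 1.37 RPKM at day 0 and 2.78, 2.90 and 3.08 at day 7 (log2 fold change 0.40 ± 0.23 (SE), adjusted p = 0.183). Rps26, at the exit of the mRNA channel, had the highest mean RPKM of the subunit, with 667, 768 and 689 RPKM at day 0 and 1006, 808 and 848 at day 7 (log2 fold change 0.32 ± 0.16 (SE), adjusted p = 0.113).

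Among the 60S genes, 9 of 42 tested rose at day 7 and 0 fell, against 12.6% and 18.6% of all genes. Their median was 0.19. No test of the difference between the subunits was made. The largest rise was that of Rpl38, which is needed for the translation of certain Hox mRNAs and whose loss in mice alters the axial skeleton. Rpl38 stood at 39.2, 49.98 and 26.2 RPKM in the day 0 libraries, 91.01, 102 and 91.2 at day 4 and 73.6, 51.3 and 70.5 at day 7. Day 7 lay above day 0 without overlap, though the nearest libraries stood at 51.3 and 49.98 RPKM, and day 4 lay above both (log2 fold change 0.78 ± 0.19 (SE), adjusted p = 0.00109 for day 7 against day 0). Rpl41, which encodes one of the smallest proteins known, stood at 322, 313 and 264 RPKM in the day 0 libraries, 343, 396 and 354 at day 4 and 461, 459 and 471 at day 7, with the stages in order and no overlap (log2 fold change 0.63 ± 0.16 (SE), adjusted p = 0.0012). Rpl35a, another gene of Diamond-Blackfan anaemia, stood at 20.3, 19.8 and 15.9 RPKM at day 0 and 26.7, 28.3 and 27.8 at day 7 (log2 fold change 0.57 ± 0.16 (SE), adjusted p = 0.0037).

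Rpl13a, which can leave the ribosome to silence inflammatory mRNAs in the GAIT complex, stood at 459, 447 and 289 RPKM in the day 0 libraries, 382, 483 and 429 at day 4 and 561, 522 and 569 at day 7. Its day 7 libraries were the highest 3 (log2 fold change 0.50 ± 0.18 (SE), adjusted p = 0.0291), and it did not pass without day 7 replicate 1 (0.48) or without day 7 replicate 3 (0.47). The other 60S genes that rose were Rpl36 (0.69), Rpl34 (0.47), Rpl37 (0.45), Rpl14 (0.45) and Rpl32 (0.43). All 5 lost their call without day 7 replicate 1, and also without day 7 replicate 3, where their log2 fold changes were 0.38–0.68. Rpl34 (0.47) and Rpl32 (0.42) lost it without day 7 replicate 2 too, and Rpl32 without day 0 replicate 2 (0.48). Rpl32 lost it as well with the length correction, where its log2 fold change was 0.20, and Rpl36 with 0.45. Without day 0 replicate 3 the calls held but the log2 fold changes were smaller, at 0.28 for Rpl13a, 0.24 for Rpl14, 0.25 for Rpl32, 0.29 for Rpl34 and 0.29 for Rpl37.

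Rpl8 and Rpl4, the 60S genes with the highest RPKM, and the genes tied to p53 did not pass the test. Rpl8, at the peptidyl transferase centre, stood at 1647, 1702 and 1277 RPKM at day 0 and 1655, 1525 and 1737 at day 7 (log2 fold change 0.10 ± 0.17 (SE), adjusted p = 0.714). Rpl4, which lines the exit tunnel, stood at 1012, 976 and 753 RPKM at day 0 and 935, 976 and 939 at day 7 (log2 fold change 0.07 ± 0.17 (SE), adjusted p = 0.807). In both genes the groups overlapped. Rpl5 and Rpl11, which with the 5S RNA can bind Mdm2 when ribosome assembly fails, stood at 4.04, 3.48 and 1.91 RPKM at day 0 and 2.69, 2.39 and 2.95 at day 7 for Rpl5 (log2 fold change -0.16 ± 0.21 (SE), adjusted p = 0.599). Rpl11 stood at 3.99, 4.31 and 2.01 RPKM at day 0 and 3.69, 1.80 and 3.61 at day 7 (log2 fold change -0.17 ± 0.24 (SE), adjusted p = 0.639). Both had overlapping groups, and Rpl5 was called lower without day 0 replicate 3. Rpl10, which joins late in the assembly of the subunit, stood at 11.7, 10.2 and 6.29 RPKM at day 0 and 11.3, 11.6 and 14.6 at day 7 (log2 fold change 0.44 ± 0.19 (SE), adjusted p = 0.0722). Rpl24, the gene of the belly spot and tail mutation, stood at 1.38, 2.03 and 1.25 RPKM at day 0 and 1.07, 1.000 and 1.86 at day 7 (log2 fold change -0.20 ± 0.27 (SE), adjusted p = 0.625), and Rpl13 at 14.98, 13.1 and 7.80 RPKM at day 0 and 13.9, 11.9 and 14.9 at day 7 (log2 fold change 0.23 ± 0.19 (SE), adjusted p = 0.383). Rpl26, which binds p53 mRNA, had an adjusted p just above the threshold (log2 fold change 0.38 ± 0.15 (SE), adjusted p = 0.0504), with 127, 119 and 99.6 RPKM at day 0 and 139, 157 and 155 at day 7 and no overlap.

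The members with the lowest fold changes did not pass the test in the comparison as deposited. Rpl28 stood at 3.32, 3.16 and 3.86 RPKM in the day 0 libraries, 3.42, 4.03 and 3.83 at day 4 and 3.22, 1.97 and 2.53 at day 7. Its day 7 values were below those of day 4, but the highest of them lay inside the day 0 range (log2 fold change -0.38 ± 0.23 (SE), adjusted p = 0.22). Rpl28 rested on few reads, 53, 43 and 34 at day 0 and 50, 24 and 45 at day 7. Rpl27 stood at 14.8, 12.9 and 10.5 RPKM at day 0 and 10.5, 7.44 and 12.6 at day 7 (log2 fold change -0.33 ± 0.19 (SE), adjusted p = 0.189). Rpl10a, part of the mobile stalk that releases the spent tRNA, stood at 30.00, 30.4 and 22.04 RPKM at day 0 and 23.4, 20.1 and 25.6 at day 7 (log2 fold change -0.24 ± 0.16 (SE), adjusted p = 0.269). In both genes the groups overlapped. Of the 14 tested members with a log2 fold change below 0, 5 remained below 0 in every one of the 23 fits: Rpl10a, Rpl21, Rpl24, Rpl27 and Rpl28.

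**Figure D3:**
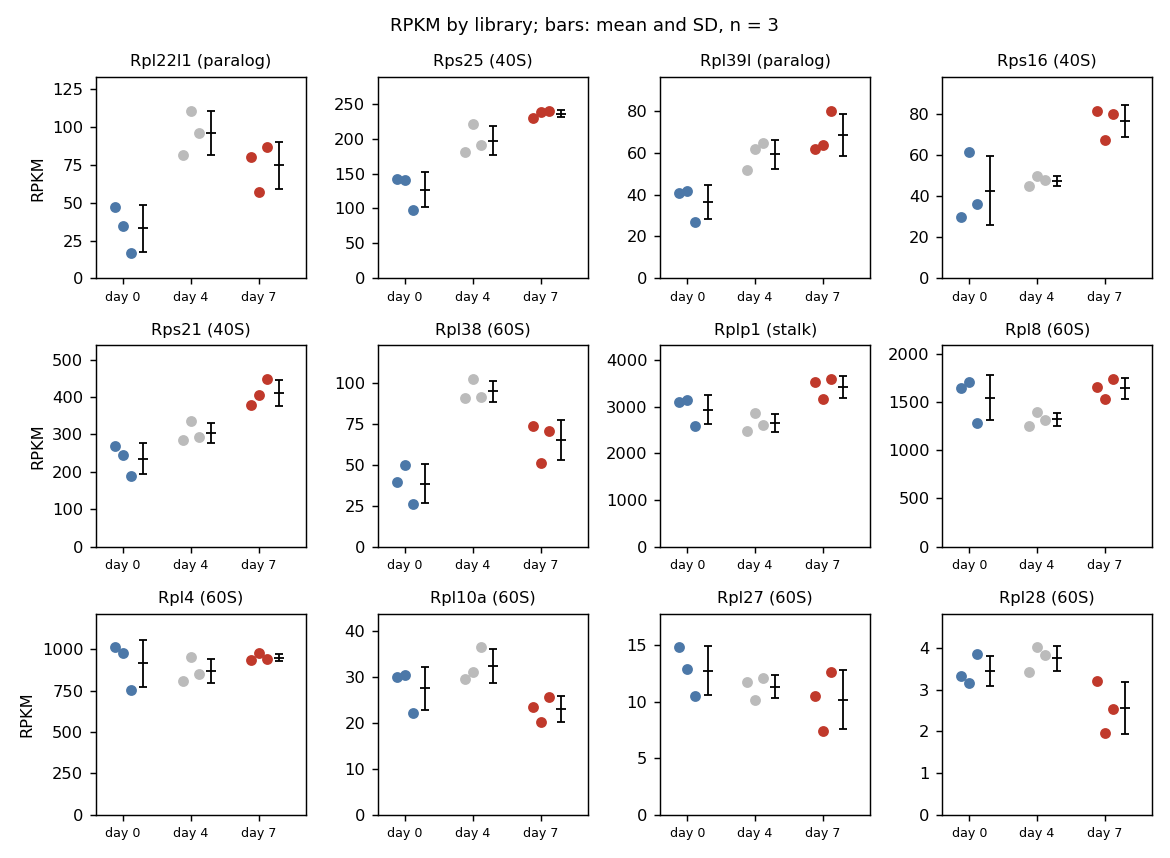
RPKM in each library (points) for 12 members, with the mean and SD of each stage (n = 3). The 6 members with the largest rises fill the first 6 panels, where day 7 lies above day 0 without overlap. They are followed by 3 of the members with the highest mean RPKM and 3 of those with the lowest fold changes, where day 0 and day 7 overlap except for Rplp1.

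None of the 3 stalk genes passed with limma, at an adjusted or an unadjusted p of 0.05. Rplp0, the anchor of the stalk, stood at 986, 999.5 and 875 RPKM in the day 0 libraries, 686, 785 and 722 at day 4 and 1043, 1092 and 1050.2 at day 7. Day 7 lay just above day 0, and day 4 below both, without overlap (log2 fold change 0.16 ± 0.17 (SE), adjusted p = 0.527 for day 7 against day 0). Rplp1, which with Rplp2 forms the arms that recruit elongation factors, had the highest mean RPKM of the members, with 3096, 3140.5 and 2584 RPKM in the day 0 libraries, 2490.5, 2869 and 2615 at day 4 and 3530.1, 3161 and 3602 at day 7 (log2 fold change 0.23 ± 0.17 (SE), adjusted p = 0.341). Rplp2 stood at 89.8, 89.6 and 65.2 RPKM at day 0 and 109, 83.5 and 108 at day 7 (log2 fold change 0.30 ± 0.16 (SE), adjusted p = 0.158). edgeR called 2 of the 3 higher, against 22.2% of all genes, and DESeq2 all 3, against 20.3%. Neither tool called a stalk gene lower, against 20.8% and 18.3% of all genes.

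Paralogs of ribosomal proteins held the largest rise of the family. Of the 8 paralogs 5 were tested, 3 rose and 0 fell, against 12.6% of all genes higher and 18.6% lower. Rpl22l1, the close relative of Rpl22, stood at 47.3, 34.9 and 16.9 RPKM in the day 0 libraries, 81.3, 111 and 96.01 at day 4 and 80.5, 57.1 and 86.6 at day 7. Day 4 was the highest stage on the mean, and the day 7 values all exceeded those of day 0 (log2 fold change 1.25 ± 0.22 (SE), adjusted p = 7.65e-06). Rpl22 itself stood at 132, 129 and 90.7 RPKM at day 0 and 125, 129 and 132 at day 7 (log2 fold change 0.16 ± 0.16 (SE), adjusted p = 0.498). Rpl39l, a relative of Rpl39 known from the testis, stood at 40.8, 41.9 and 26.9 RPKM in the day 0 libraries, 51.6, 61.6 and 64.9 at day 4 and 61.7, 63.7 and 80.1 at day 7. All 6 later libraries lay above day 0 (log2 fold change 0.91 ± 0.17 (SE), adjusted p = 3.47e-05), whereas Rpl39 stood at 104, 88.7 and 56.00 RPKM at day 0 and 109, 92.2 and 116 at day 7 with overlap (log2 fold change 0.39 ± 0.17 (SE), adjusted p = 0.0746). Rpl36al stood at 29.5, 29.5 and 18.7 RPKM at day 0 and 38.8, 34.3 and 39.9 at day 7 (log2 fold change 0.56 ± 0.17 (SE), adjusted p = 0.00926), and it did not pass without day 7 replicate 1 (0.54) or without day 7 replicate 3 (0.52), while without day 0 replicate 3 it passed with 0.35. Rps27l, a target of p53, and Rpl7l1, a relative of Rpl7, did not pass, with log2 fold change 0.41 ± 0.17 (SE), adjusted p = 0.0605 and log2 fold change -0.02 ± 0.16 (SE), adjusted p = 0.957.

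The share of a paralog within a pair does not depend on how libraries are scaled, but it was not corrected for the trend on gene length. With the length correction the log2 fold changes were 1.02 for Rpl22l1 and 0.24 for Rpl22. For Rpl39l and Rpl39 they were 0.77 and 0.35. Rpl22l1 made up 26.4%, 21.3% and 15.7% of the RPKM of Rpl22l1 and Rpl22 at day 0, 43.1%, 46.8% and 46.4% at day 4 and 39.2%, 30.7% and 39.6% at day 7. The 3 stages did not overlap, and the mean was 21.2% ± 5.36 at day 0 and 36.5% ± 5.07 at day 7 (SD, n = 3). Rpl39l made up 28.2%, 32.1% and 32.4% of the pair with Rpl39 at day 0, 29.8%, 29.8% and 33.4% at day 4 and 36.1%, 40.8% and 40.8% at day 7. For this pair day 0 and day 4 overlapped and day 7 lay above both. For each of these pairs the two-sided exact permutation test of day 7 against day 0 gave p = 0.1, the smallest value possible, and 0.25 after Benjamini-Hochberg adjustment over the 5 pairs. Rps27l made up 92.6–98.4% of the pair with Rps27, and Rpl36al 84.9–90.3% of the pair with Rpl36a, with overlap of day 0 and day 7 (exact permutation p = 0.2 and 0.5). These high shares stand beside the sequence that Rps27 and Rpl36a share with other genes, 98.6% and 85.5% of their mRNA. Rpl7l1 made up 20.4–31.1% of the pair with Rpl7 (exact permutation p = 0.4).

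**Figure D4:**
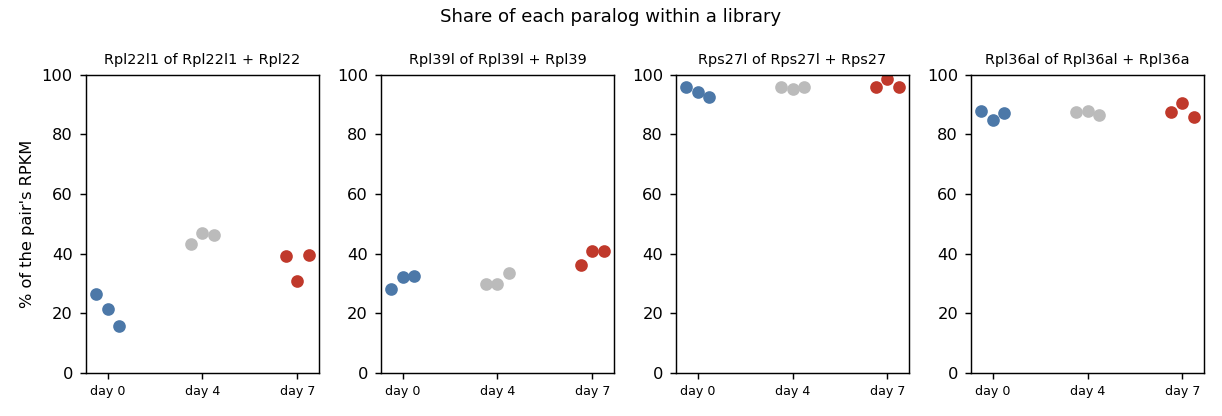
Share of a paralog in the summed RPKM of the paralog and its partner, for 4 pairs in each library. The Rpl22l1 share rises from 15.7–26.4% at day 0 to 30.7–39.6% at day 7 and is highest at day 4, the Rpl39l share is highest at day 7, and the other pairs overlap between day 0 and day 7.

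Rpl10l and Rpl3l, paralogs of germ cells and striated muscle, were close to absent, unlike Rpl39l. Rpl10l, which replaces Rpl10 in spermatocytes, had reads in 1 library only, at 0.0817 RPKM. Rpl3l, the form of Rpl3 in striated muscle, was at or below 0.157 RPKM in each library. Rps27rt was listed at 0 in all 9, but 91.1% of its mRNA also occurs in other genes and only reads with a unique position were counted, so this 0 does not show that it was absent. Rps19bp1, which the name rule takes in although its product binds Rps19 rather than being part of the ribosome, stood at 15.8, 16.6 and 12.3 RPKM at day 0 and 15.7, 15.8 and 17.7 at day 7 (log2 fold change 0.14 ± 0.19 (SE), adjusted p = 0.607).

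Day 4 did not lie between the other stages for most members. On mean RPKM, 62 of the 85 members were higher at day 4 than at day 0, and 42 were higher at day 7 than at day 4. Of the 12710 genes tested with values at all stages, 5498 and 5147 were higher in these comparisons. The order day 0, day 4, day 7 from low to high was seen in 22 members, day 4 was the highest stage in 40, and day 4 was the lowest in 21. In 29 of the 81 tested members all day 4 values exceeded all day 0 values, and in 6 they were all below, against 21.1% and 22.2% of the genes tested. The 6 were Rpl29, Rpl35, Rpl7a, Rplp0, Rps7 and Rps20. Rpl35 showed the widest gap of these, with 55.97, 57.3 and 44.8 RPKM in the day 0 libraries, 22.4, 27.3 and 23.2 at day 4 and 59.3, 68.7 and 70.00 at day 7. Rps20 stood at 133, 144 and 117 RPKM in the day 0 libraries, 79.01, 90.1 and 85.00 at day 4 and 122, 119.6 and 129.8 at day 7. In both genes the day 7 libraries were back near or above the day 0 range.

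Between day 4 and day 7 the subunits differed in their counts. The day 7 values all exceeded the day 4 values in 29 tested members and were all below them in 15, against 13.8% and 24.6% of the genes tested. All 15 members below were 60S genes (of 43), and 13 other 60S genes were above. Of the 30 40S genes 0 were below and 14 were above, and this was not tested. Rpl13 moved the most of the 15, with 14.98, 13.1 and 7.80 RPKM in the day 0 libraries, 25.7, 29.97 and 30.1 at day 4 and 13.9, 11.9 and 14.9 at day 7. Each day 4 library of Rpl13 lay at 25.7 RPKM or above, and each other library at 14.98 or below. Rpl26 stood at 168, 202 and 185 RPKM at day 4 and 139, 157 and 155 at day 7, and Rpl19, which was low throughout, at 3.28, 2.75 and 3.34 and 1.79, 1.65 and 2.13. Within a library, Rplp2 made up 12.6–12.9% of the RPKM of Rplp2 and Rplp0 at day 4 and 6.93–9.43% at day 0 and day 7, a ratio that the scaling of libraries does not change. This ratio was not corrected for the trend on gene length. Stage, table and depth changed together at day 4 and cannot be told apart.

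The measured levels of the members differed widely, although their proteins are held in near equal numbers in the ribosome. Among the 76 core genes, those of the subunits and the stalk, mean RPKM over the 9 libraries ran from 1.25 (Rpl23a) to 3010 (Rplp1), with a median of 45.0. Rplp1 and Rpl8 exceeded 1000 RPKM, 27 genes lay between 100 and 1000, and 47 lay below 100, of them 16 below 10. After Rplp1 the highest were Rpl8, Rplp0, Rpl4 and Rps26. Within a stage the order was nearly the same in each library, with Spearman correlations over members of 0.993 to 0.999 between replicates.

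Low levels went with sequence that other genes carry. Ribosomal protein genes have many processed pseudogenes, copies of the mRNA pasted back into the genome, and only reads with a unique position were counted. Names of 238 processed pseudogenes were found to match the rule, and 193 of them had a read. Their summed CPM was 92.1–118 per library, against 14822–22717 for the members. For each member the share of 50-base stretches of its main mRNA that also occur in a transcript of another gene was computed from GENCODE. It was under 20% in 17 members, whose median level was 107 RPKM, between 20 and 80% in 52 (67.0 RPKM), and 80% or more in 16 (8.68 RPKM). The main mRNA was the coding transcript that the APPRIS annotation ranks first, the longest where several tied. Long transcripts can dilute the share, and Rps15a (5179 bases) and Rps20 (3706 bases) lay under 20%. Over the 75 core genes tested, Spearman's rho of mean RPKM with this share was -0.49, a description across genes that share libraries. Rps3 (2.96% shared) stood at 302–363 RPKM in all but 2 libraries, whereas Rps27 (98.6%) did not exceed 5.27 RPKM and Rpl9 (93.3%) did not exceed 6.85. Because of this counting, levels of different members were not read as amounts of mRNA, and fold changes compare each gene with itself.

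**Figure D5:**
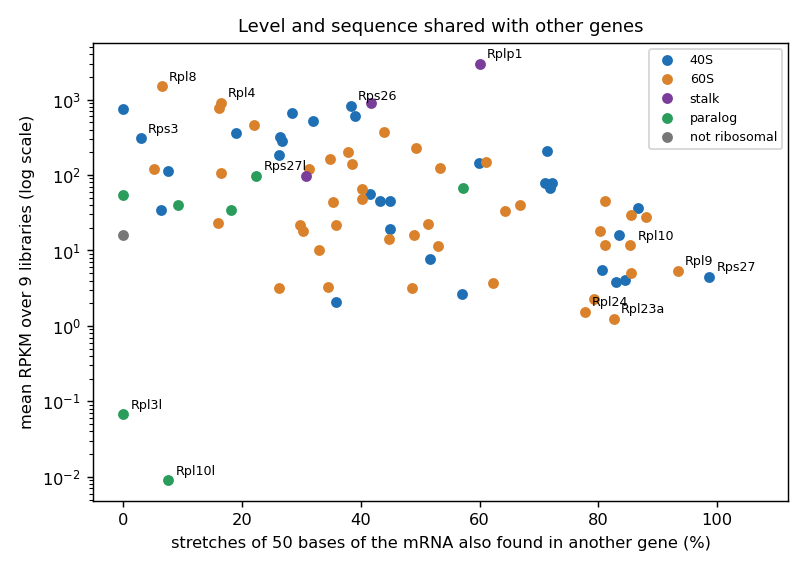
Mean RPKM over the 9 libraries (log scale) against the percentage of 50-base stretches of a member's mRNA that also occur in another gene, for the 84 members with reads. Members with 80% or more shared stretches have a median of 8.68 RPKM, against 107 RPKM for those under 20%, and Rpl3l and Rpl10l lie far below the rest at little shared sequence.

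Calls at day 7 were fewest among the members with the most shared sequence. Of the members tested, 5 of 15 under 20% shared, 14 of 52 between, and 1 of 14 at 80% or more (Rpl36) rose, with medians of 0.28, 0.31 and 0.22, against 12.6% of all genes higher and a median of -0.11. At 80% or more the share called was below the 12.6% of all genes, and the call of Rpl36 was lost in the fits given above. The 17 members under 20% shared summed to 0.783%, 0.776% and 0.581% of all CPM at day 0 and to 0.805%, 0.822% and 0.850% at day 7, again without overlap, and the ratio of the means was 1.16. Fold changes leaned on length: 13 of 37 core genes with a gene model under the median of 1454 bases rose, with a median of 0.33, against 4 of 38 longer ones, with a median of 0.18. For the longer genes the share called was below the 12.6% of all genes. Spearman's rho of fold change with gene model length was -0.33, and with GC content 0.09, over the same 75 genes.

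Ribosomal proteins that carry other names were read beside the members. Fau, a fusion of a ubiquitin-like protein with Rps30, stood at 12.4, 11.7 and 9.51 RPKM at day 0 and 16.7, 16.2 and 18.1 at day 7 and rose (log2 fold change 0.58 ± 0.19 (SE), adjusted p = 0.0148). It did not pass without day 7 replicate 1 (0.59) or without day 7 replicate 3 (0.54). Rack1, a signalling scaffold on the 40S subunit, stood at 509, 518 and 408 RPKM at day 0 and 528, 538 and 565 at day 7 without overlap (log2 fold change 0.19 ± 0.18 (SE), adjusted p = 0.453), and Rpsa, also known as the laminin receptor, at 4.37, 4.76 and 2.71 RPKM at day 0 and 4.44, 3.87 and 3.75 at day 7 (log2 fold change 0.06 ± 0.21 (SE), adjusted p = 0.866).

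Few genes of the machinery that builds and feeds ribosomes passed with limma, which called 12.6% of all genes higher and 18.6% lower. More did with edgeR, which called 22.2% of all genes higher and 20.8% lower. For rRNA synthesis (RNA polymerase I and its factors) limma called 0 of 15 tested genes in either direction, also at an unadjusted p under 0.05, with a median of -0.12. edgeR called 3 of them higher. Of 39 ribosome assembly factors 3 rose, the box H/ACA proteins Nop10 (0.54) and Nhp2 (0.50) and the nucleolar GTPase Gnl3 (0.52), 0 fell, and the median was 0.05. edgeR called 12 of the 39 higher and 2 lower. The 3 limma calls were lost without day 7 replicate 1 and without day 7 replicate 3, where the log2 fold changes were 0.43 (Nhp2) to 0.52 (Gnl3), and that of Nhp2 also without day 0 replicate 2 (0.47). Gnl3 stood at 0.30 without day 0 replicate 3 and passed. Of the 6 elongation factors 0 passed, with a median of -0.05, and at an unadjusted p under 0.05 there were 0 as well, while edgeR called 1 higher. Among them, Eef2 stood at 1714, 1892 and 1649 RPKM at day 0 and 1502, 1443 and 1463 at day 7, with day 7 below day 0 in every library (log2 fold change -0.25 ± 0.19 (SE), adjusted p = 0.348). Of 30 initiation factors, Eif4a2 rose (log2 fold change 0.53 ± 0.16 (SE), adjusted p = 0.011), and Eif3c (log2 fold change -0.43 ± 0.15 (SE), adjusted p = 0.0297) and Eif4g3 (-0.41) fell. Eif3c lost its call in 5 of the 6 fits that left out a library, all but the one without day 0 replicate 3, with log2 fold changes of -0.43 to -0.37, and Eif4a2 lost it without day 7 replicate 1 (0.53) and stood at 0.30 without day 0 replicate 3. Eif4g3 did not pass with median-of-ratios scaling (-0.30), with the length correction (-0.16) or without day 0 replicate 2 (-0.37), day 7 replicate 2 (-0.34) or day 7 replicate 3 (-0.39). edgeR called 10 of the 30 higher and 3 lower.

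Host genes of snoRNAs carry tracts like those of the members, and several moved with them. Of 7 tested, 3 rose and 1 fell, against 12.6% and 18.6% of all genes. Both counts were the same in each fit that left out a library. Zfas1 stood at 35.4, 41.6 and 28.4 RPKM at day 0 and 65.7, 62.9 and 66.1 at day 7 (log2 fold change 0.90 ± 0.16 (SE), adjusted p = 9.18e-06). Snhg6 stood at 43.6, 41.9 and 30.1 RPKM at day 0 and 62.9, 63.6 and 65.5 at day 7 (log2 fold change 0.74 ± 0.16 (SE), adjusted p = 2.88e-04), and Epb41l4aos rose by 0.65 on the log2 scale. Without day 0 replicate 3 Epb41l4aos stood at 0.42 and with the length correction at 0.41, and it passed in both. Snhg12 went the other way, with 49.4, 57.02 and 42.2 RPKM at day 0 and 26.6, 25.7 and 29.98 at day 7 (log2 fold change -0.84 ± 0.16 (SE), adjusted p = 3.91e-05). Gas5, the best known of them, stood at 107, 115 and 91.4 RPKM at day 0 and 89.1, 93.5 and 102 at day 7 and did not pass (log2 fold change -0.13 ± 0.16 (SE), adjusted p = 0.555).

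Of 17 tested regulators of ribosome production, 4 were higher and 3 lower, against 12.6% and 18.6% of all genes. Myc, which drives the transcription of ribosomal protein genes and rRNA, stood at 8.71, 11.5 and 10.6 RPKM in the day 0 libraries, 23.1, 16.4 and 22.4 at day 4 and 17.01, 12.96 and 14.6 at day 7 (log2 fold change 0.52 ± 0.17 (SE), adjusted p = 0.0137 for day 7 against day 0). Every later library lay above day 0, but the call was lost without day 0 replicate 1 (0.41), day 7 replicate 1 (0.42) or day 7 replicate 3 (0.53). Mycn showed the largest rise at a very low level, 0.347, 0.203 and 0.157 RPKM at day 0 and 0.623, 0.313 and 0.816 at day 7 (log2 fold change 0.89 ± 0.29 (SE), adjusted p = 0.0151). Ddit4 (0.51) and Rragd (0.48) rose and Sesn2 (-0.46) and Rptor (-0.49), the mTORC1 subunit, fell. Most of these calls depended on single libraries. Mycn did not pass without day 0 replicate 3 (0.74), day 7 replicate 1 (0.82) or day 7 replicate 3 (0.66). Rptor did not pass with the length correction (-0.23) or without day 7 replicate 2 (-0.43) or day 7 replicate 3 (-0.48). Sesn2 lost its call without day 0 replicate 1 (-0.42), day 0 replicate 2 (-0.44), day 7 replicate 2 (-0.38) or day 7 replicate 3 (-0.50), Ddit4 without day 7 replicate 1 (0.40), and Rragd without any library but day 0 replicate 3 (0.46 to 0.54). Eif4ebp2 fell by 0.66 on the log2 scale, with 14.1 RPKM in day 0 replicate 3 against 6.79 and 7.11 in the other day 0 libraries, and without that library it was not called (-0.33). It was also not called with median-of-ratios scaling (-0.56), with the length correction (-0.66), or without day 7 replicate 1 (-0.65) or day 7 replicate 3 (-0.46). Mtor itself and Larp1, which binds the tract, stood at 6.22, 5.81 and 5.84 RPKM at day 0 and 6.28, 5.23 and 5.80 at day 7 and 19.6, 22.7 and 20.9 RPKM at day 0 and 23.1, 19.9 and 21.5 at day 7 and did not pass (-0.05 and 0.03).

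The members' direction was opposite to that of proliferation genes. Of 20 such genes 17 fell at day 7 and 0 rose, also by edgeR and at an unadjusted p under 0.05 (19 lower), and the median was -0.62. With limma 18.6% of all genes fell and 12.6% rose. Among 10 housekeeping genes, Gapdh rose (log2 fold change 1.23 ± 0.16 (SE), adjusted p = 2.49e-08), Polr2a (-0.73) and Sdha (-0.40) fell, and the median was -0.07. Sdha kept its call without day 0 replicate 3 and lost it without any other library, with log2 fold changes of -0.45 to -0.29, and it stood at -0.26 with the length correction. The part of the macrophage and osteoclast markers, of the 7 varying genes and of day 0 replicate 3 in the members' rise was not tested beyond the values above.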

How the data were processed

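RNA-seq values of 9 libraries, 3 each at day 0, day 4 and day 7, were analysed. Per the methods and labels, the authors depleted rRNA, aligned reads to GRCm38 with STAR 2.0.4b and counted unique, unambiguous reads per gene with featureCounts. The authors deposited these as CPM, scaled to the reads on genes, and as RPKM, which also divides by gene model length. Strand setting and read length are not given in the sources used here. CPM values of a library were multiples of the value of 1 read (100% of them, tolerance 0.02), which gave back the reads. Replicates of a stage differed beyond sampling noise (chi-square 11.7–203 for each degree of freedom), and p-values measure only the spread between these samples.

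Members and gene lists were chosen with earlier results of these data known. For day 7 against day 0, limma 3.58.1 in R 4.3.3 (trended variances, log2(CPM + 0.5), 12712 genes with a mean of at least 1 CPM) was used with Benjamini-Hochberg adjustment. The filter left out 11075 genes with reads, and the scale understates changes of low genes. The variance prior had 42.9 degrees of freedom against 4 residual ones. On simulated data the fit called 190 of 200 changed genes and made 4 false calls. The simulation held no varying abundant genes, no length trend and no outlying library, so it does not give the rate of false calls here. Alternatives were other pseudocounts, filters and scalings, edgeR 4.0.16, DESeq2 1.42.0, voomWithQualityWeights, robust variances, the RPKM table, length and GC corrections, a replicate block and leaving out each library. Leaving out 7 abundant genes (at least 5000 CPM and a 3-fold range within a stage) was added after seeing the data.

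Named genes were the 5 largest rises and falls past the threshold, the largest in each subunit, the 5 highest and 5 lowest levels, stalk and paralog genes, members with known roles and the extremes of each companion list. Other genes given by value were chosen after their values were seen. Gnb2l1, Polr1f, Polr1g, Polr1h, Riok2, Snhg1, Snhg8 and Snhg16 of the lists matched no row, and Rps6kb2 was listed at 0. Shared sequence was computed on both strands against GENCODE M21 transcripts of genes that do not overlap the member.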

Additional observations from a re-analysis of the deposited data

How the results depend on the processing

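The members' direction at day 7 held in every alternative, with a median log2 fold change between 0.21 and 0.40, or 0.12 to 0.38 when a library was left out. The number of members called higher (20) was 49 with median-of-ratios scaling, TMM scaling and edgeR, 50 with DESeq2, 54 with voomWithQualityWeights, 53 with the GC correction, 32 with the length correction and 32 without the 7 varying abundant genes, where 1 member, of the 60S subunit, was lower. In the fits with 49 to 54 members higher, 20.3% (DESeq2) to 24.8% (voomWithQualityWeights) of all genes were higher. With a library left out 10 to 26 members were higher and 0 to 3 lower. The replicate block gave 19 higher and 0 lower, and deviations of same-numbered libraries did not go together (correlations -0.02, -0.18 and -0.44), so the numbers were not taken to pair the samples. Of 40S genes (8 higher), 21 were higher with edgeR and DESeq2, 22 with the median-of-ratios and TMM scalings, voomWithQualityWeights and the GC correction, 13 with the length correction, 15 without the varying genes, and 5 to 10 with a library left out. Of 60S genes (9 higher), 21 were higher with the median-of-ratios and TMM scalings, 22 with edgeR and DESeq2, 25 with voomWithQualityWeights and the GC correction, 15 with the length correction, 5 with no filter, 4 with the RPKM table, and 3 to 13 with a library left out, where 0 to 3 were lower. Of all genes, 12.0% were higher with the RPKM table, 7.63% with no filter and 9.24% to 12.6% with a library left out. The 60S counts of 4 with the RPKM table and 3 with a library left out were not above these shares. Why the scalings gave more calls was not tested.

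Counts in the companion lists moved in the same settings. The scalings, the count models, voomWithQualityWeights and the GC correction gave 3 of the genes outside the name rule as higher (1 in the reported fit), 10 or 11 paralogs and their partners (3), 2 or 3 stalk genes (0), 2 or 3 rRNA synthesis genes (0), 10 to 16 assembly factors (3), 1 elongation factor (0), 10 to 12 initiation factors (1) and 2 housekeeping genes (1). The length correction gave 2, 8, 1, 3, 11, 2 and 7 of the first 7 lists as higher, and with the replicate block as well 6 paralogs, 1 stalk gene, 3 rRNA synthesis genes, 6 assembly factors and 6 initiation factors. Of the paralog list, 7 were higher with a mean of at least 10 CPM and with robust variances, and 5 without the varying genes, where 1 stalk and 1 rRNA synthesis gene also were. Without the varying genes, lower calls reached 4 for rRNA synthesis, 4 for assembly, 1 for elongation and 10 for initiation factors. In that fit 32.3% of all genes were lower, with the initiation factors near that share and the other 3 lists below it. Otherwise lower calls were 1 for rRNA synthesis, 1 to 3 for assembly and 0 to 4 for initiation. Growth control genes went up to 7 higher (GC correction) and ranged from 1 to 5 lower, and housekeeping genes were 1 lower in 4 fits. With a library left out the ranges were 0 to 1 higher outside the name rule, 2 to 7 for paralogs, 0 to 3 for assembly factors (0 to 6 lower), 0 to 6 lower for rRNA synthesis, 0 to 1 lower for elongation, 0 to 2 higher and 0 to 11 lower for initiation, 0 to 4 in either direction for growth control and 1 to 2 lower for housekeeping. In the fits with a library left out, 9.24% to 12.6% of all genes were higher and 12.0% to 36.9% lower. The 36.9% was that without day 0 replicate 3. The scalings, count models, voomWithQualityWeights and GC correction called 20.3% to 24.8% of all genes higher, and the length correction 22.2%. In 1176 refits of 54 named genes, 135 gained and 47 lost a call and 0 reversed.

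The summed CPM of the 17 members under 20% shared was 7134 at day 0, 6930 at day 4 and 8257 at day 7, against 18139, 18333 and 21979 for all members, and without the varying genes day 7 was 23923. Members above day 0 at day 4 numbered 62 to 64 in the alternatives and 53 to 66 with a library left out, and members above day 4 at day 7 39 to 49 and 41 to 51. Depth limits members with few reads, such as Rpl28, Rpl24 and Rps29, and members that share most of their sequence.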
